A study of Mus musculus with 9 samples.

Results

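The stem cell surface and vascular-type genes examined here are 10 genes that haematopoietic stem cells carry in common with the cells that line blood vessels, or that mark stem cells at their surface. They are Procr, Slamf1, Tek, Esam, Emcn, Fgd5, Ctnnal1, Robo4, Tie1 and Angpt1. They were chosen by name and found by symbol among the 24060 named rows of the count table, and all 10 were among the 13355 genes that passed the filter on low counts. RNA was sequenced from LSKs, the Lin-Sca1+Kit+ cells of the bone marrow that include stem cells and multipotent progenitors. All donors were of the C57BL/6 strain, their marrow was given to lethally irradiated recipients that carry the CD45.1 allele, and donor-derived CD45.2+ LSKs were sorted after 3 months of doxycycline feeding. The control group (3 libraries) is labelled as control and named wild-type in the sample descriptions, with no transgene. The NHD13 group (2 libraries) carried NUP98-HOXD13, a fusion gene that the Vav promoter drives in blood cells and that models myelodysplastic syndrome (MDS). The NHD13/MSI2 group (4 libraries) carried NHD13 together with a doxycycline-inducible MSI2, an RNA-binding protein, at the Col1a1 locus and the rtTA activator at Rosa26. The age field of the labels holds 4 months for all of them. The study's own account gives the same interval as time after transplantation, so that this field does not give the age of the donors. Its methods describe primary donors for transplants as 3 to 4 months old. The labels do not say whether each library came from a separate animal, so that p-values measure the spread between libraries. NHD13 mice were the reference for what MSI2 adds, and control mice for what both transgenes change.

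Tie1 and Tek (also named Tie2) are receptor tyrosine kinases of blood vessels that stem cells also use, and Angpt1 is the secreted ligand that activates Tek and is linked to stem cell quiescence in the marrow. Procr (CD201, the endothelial protein C receptor) and Slamf1 (CD150) are surface proteins by which long-term stem cells are sorted. Esam and Emcn are an endothelial junction protein and an endothelial sialomucin that are also found on stem cells, Fgd5 is an exchange factor of the GTPase Cdc42 whose locus has been used to mark stem cells, and Robo4 is a guidance receptor of vessels and stem cells.

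Library totals ran from 19242153 to 23013493 counts, and a count of 3 in a library corresponded to 0.13 to 0.156 CPM before scaling. CPM are counts scaled to the size of the library, here with TMM factors. Kit, Ly6a (Sca1) and Ptprc (CD45) were counted in all 9 libraries. Msi2 itself did not separate the libraries labelled NHD13/MSI2 (log2 fold change over NHD13 −0.03, adjusted p = 0.983), so that every direction given for this group rests on its label as far as MSI2 is concerned. Hoxd13, the mouse gene named in the fusion, was higher in NHD13/MSI2 than in control (log2 fold change 7.27, adjusted p = 0.0026). In NHD13 over control it was at 7.01 (adjusted p = 0.0175), and in NHD13/MSI2 over NHD13 at 0.26 (adjusted p = 0.878). Control replicates 1 and 3 had 888 and 866 CPM of Xist, whereas control replicate 2 and all NHD13 and NHD13/MSI2 libraries had counts of Y-linked genes. Comparisons with control therefore mix sexes, and fits that kept only control replicate 2 are given for the 10 genes after their levels. The library name of control replicate 1 holds the word bulk and those of control replicates 2 and 3 the words MPP and HSC, although the labels name LSK for all of them. NHD13/MSI2 replicate 4 stood apart from the other 3 libraries of its group (chi-square 365 to 390 per gene in its pairs, 17.6 to 30.1 in the others) and had a TMM factor of 0.785, against 0.969 to 1.09 in all other libraries. Without it 646 genes were called against NHD13 and 2066 against control, where 423 and 1474 were called with it. In RNA of bulk cells, fewer cells of a type and less RNA per cell cannot be told apart.

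The promoters of the genes were searched for short motifs of blood and endothelial transcription factors. RefSeq promoters (GRCm38.p6) were found for 8 of the 10 genes, and not for Esam and Angpt1. The 250 bases before each start were searched on both strands, and the same was done for all 32851 promoters of that length. The GATA factor letters AGATAA were in none of the 8 and in 9.99% of all promoters. The ETS factor letters CCGGAA were also in none, against 12% of all promoters. The RUNX letters TGTGGT were likewise in none of the 8, against 14%. A second form of the ETS letters, CAGGAA, was in 5 of the 8 (Slamf1, Tek, Emcn, Tie1 and Robo4) against 25.7% of all promoters. The E-box CAGCTG was in 2 (Procr and Robo4) against 13%. The Sp/KLF letters GGGCGG were in 2 (Ctnnal1 and Fgd5) against 32.7%. No searched motif overlapped another in the printed sequences. The letters describe the sequence and are not evidence of binding. The sequences below are those of the 4 genes with the lowest levels in NHD13/MSI2 relative to NHD13, and of Robo4, whose level was not lower there. They run 5′ to 3′ towards the start, and capitals mark the searched motifs on either strand. TTCCTG is the reverse complement of CAGGAA, and CCGCCC is that of GGGCGG. Slamf1 is from chr1:171766882-171767131, Tek from chr4:94739039-94739288, Emcn from chr3:137340828-137341077, Fgd5 from chr6:91978715-91978877 and Robo4 from chr9:37401722-37401896, all on the plus strand. For Fgd5 and Robo4 the last 87 and 75 bases are left out, because they lie inside a GENCODE transcript. Slamf1 and Emcn are printed in full, although their last few bases also pass the GENCODE gene starts (171767127 and 137341067).
Slamf1: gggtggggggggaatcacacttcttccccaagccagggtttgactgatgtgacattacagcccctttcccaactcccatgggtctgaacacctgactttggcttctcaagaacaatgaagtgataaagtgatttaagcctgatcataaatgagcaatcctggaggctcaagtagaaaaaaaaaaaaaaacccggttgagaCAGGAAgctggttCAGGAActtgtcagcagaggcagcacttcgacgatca
Tek: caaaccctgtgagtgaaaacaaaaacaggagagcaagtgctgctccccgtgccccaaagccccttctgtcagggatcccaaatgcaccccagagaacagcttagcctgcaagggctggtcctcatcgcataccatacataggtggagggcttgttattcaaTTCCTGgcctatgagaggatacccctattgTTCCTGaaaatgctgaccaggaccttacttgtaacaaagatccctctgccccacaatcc
Emcn: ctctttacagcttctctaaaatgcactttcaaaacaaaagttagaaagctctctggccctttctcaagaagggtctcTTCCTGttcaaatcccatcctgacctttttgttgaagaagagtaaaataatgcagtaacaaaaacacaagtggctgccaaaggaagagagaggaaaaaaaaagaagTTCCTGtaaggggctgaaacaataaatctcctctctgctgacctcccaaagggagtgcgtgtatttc
Fgd5: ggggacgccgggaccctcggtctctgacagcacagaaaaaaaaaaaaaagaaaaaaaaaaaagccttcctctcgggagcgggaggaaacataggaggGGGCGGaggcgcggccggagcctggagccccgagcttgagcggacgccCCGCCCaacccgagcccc
Robo4: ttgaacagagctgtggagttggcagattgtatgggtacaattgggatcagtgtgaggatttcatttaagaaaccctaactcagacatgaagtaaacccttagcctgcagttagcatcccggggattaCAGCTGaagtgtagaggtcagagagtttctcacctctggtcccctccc
In Slamf1, Tek and Emcn the ETS-type letters stand as a pair, 50 and 37, 89 and 59, and 173 and 67 bases before the start. Fgd5 has none of them and holds GGGCGG 5 times in its 250 bases, of which those 153 and 105 bases before the start are printed. The CAGCTG of Robo4 stands 123 bases before its start, and its CAGGAA, at 50 bases, is in the part left out. In Tie1 and Procr, which are not printed, the last 212 and 100 bases also lie inside the GENCODE gene. These parts hold the CAGGAA of Tie1, 209 bases before the start, and the CAGCTG of Procr, at 34 bases.

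Most of these genes were lower in the libraries labelled NHD13/MSI2, and 4 were close to 0. Slamf1, Tek, Emcn and Fgd5 stood at 0.62% to 1.68% of their NHD13 means, Tie1 and Esam at 8.3% and 11.7%, Ctnnal1 and Procr at 20.8% and 42%. Angpt1 stood at 106% and Robo4 at 260% of the NHD13 mean, neither of them past the test. At an adjusted p under 0.01 in edgeR's quasi-likelihood test (Benjamini-Hochberg adjustment over all genes tested), 6 of the 10 genes fell against NHD13 and none was higher, where 2.58% of all tested genes were called lower and 0.584% higher. Against control, 8 of the 10 fell and none was higher, with 6.55% of all genes called lower and 4.49% higher. The median log2 fold change of the 10 genes was −3.33 against NHD13 and −3.93 against control, and that of all tested genes was −0.03 and −0.01. Fgd5, whose fold change is poorly bounded at so few counts, lies beyond both medians and does not affect them.

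**Figure D1:**
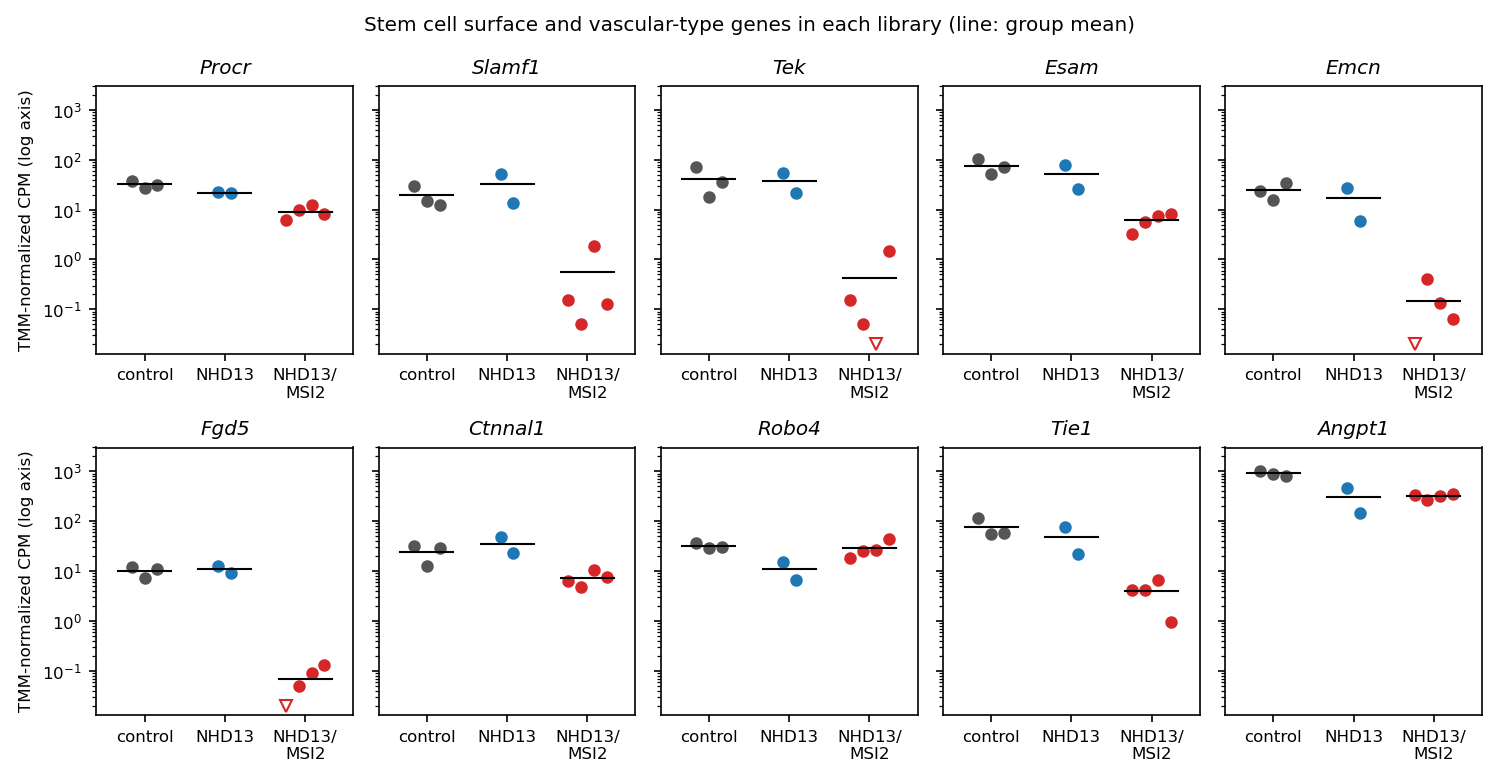
TMM-normalized CPM (log axis) of the 10 genes in each library, with 3 control, 2 NHD13 and 4 libraries labelled NHD13/MSI2; points are libraries, lines are group means and open triangles at the bottom are libraries with 0 counts. Fgd5 is at 7.26 to 12.6 CPM in the control and NHD13 libraries and at 0 to 0.13 CPM in NHD13/MSI2, whereas the Robo4 levels of NHD13/MSI2, 18.4 to 43.9 CPM, enclose those of control.

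Tek, the angiopoietin receptor (chromosome 4 of GRCm38, 94739289 to 94874976, plus strand, GENCODE M21), had a level of 71.1, 18.2 and 35.9 CPM in the control libraries (replicates 1 to 3) and of 54.1 and 21.7 CPM in the NHD13 libraries. In the 4 libraries labelled NHD13/MSI2 it was at 0.155, 0.0499, 0 and 1.49 CPM, the last of them from 23 counts and the others from 3, 1 and 0. Each of these 4 libraries lay far below every other library. The log2 fold change was −6.63 (SE 1.05, adjusted p = 0.00616) over NHD13 and −6.77 (SE 1.02, adjusted p = 0.00177) over control. Replicate 4 decided the size: without it Tek stood at −9.04 and −9.19, against −5.80 over NHD13 without NHD13 replicate 1 (adjusted p = 0.0331) and −6.13 over control without control replicate 1. Tie1, the partner receptor of Tek (chromosome 4, 118471191 to 118490061, minus strand), was at 117, 55.9 and 57.9 CPM in control, 74.7 and 21.5 CPM in NHD13 and 4.24, 4.24, 6.51 and 0.974 CPM in NHD13/MSI2. Again the groups did not overlap, but replicates 1 to 3 kept 82 to 144 counts of Tie1 where Tek had at most 3. The log2 fold change of Tie1 was −3.57 (SE 0.632, adjusted p = 0.00923) over NHD13 and −4.25 (SE 0.612, adjusted p = 0.0014) over control. Over NHD13 it was −2.39 without NHD13 replicate 1 (adjusted p = 0.102) and −4.17 without NHD13 replicate 2.

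Angpt1, the ligand of Tek (chromosome 15, 42424723 to 42676977, minus strand), took another course. Its level was 1021, 901 and 798 CPM in control, 454 and 148 CPM in NHD13 and 338, 266, 325 and 347 CPM in NHD13/MSI2. The NHD13/MSI2 libraries lay between the NHD13 libraries and below every control. The log2 fold change over NHD13 was 0.09 (95% interval −0.73 to 0.90, adjusted p = 0.93), which leaves room for a change of up to 0.90 in size. Against control Angpt1 fell by 1.51 (SE 0.316, adjusted p = 0.00869), to 35.2% of the control mean. That call is near the threshold, and it was lost in the fits without control replicate 1, 2 or 3 or NHD13/MSI2 replicate 1, 2 or 3. The log2 fold change itself stayed between −1.73 and −1.41 over the 21 alternatives.

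Procr, the receptor for activated protein C (chromosome 2, 155751117 to 155755471, plus strand), kept a measurable level in every library. Its level was 37.7, 27.4 and 30.9 CPM in control, 22.1 and 21.3 CPM in NHD13 and 6.26, 9.82, 12.1 and 8.24 CPM in NHD13/MSI2. These values stepped down from group to group without overlap. Procr fell against control by 1.81 (SE 0.238, adjusted p = 0.000875), and its log2 fold change of −1.25 (95% interval −1.84 to −0.66) over NHD13 missed the threshold (adjusted p = 0.0189). Slamf1, the SLAM receptor CD150 (chromosome 1, 171767127 to 171801184, plus strand), was at 30.2, 15.1 and 12.6 CPM in control, 51.8 and 13.4 CPM in NHD13 and 0.155, 0.0499, 1.85 and 0.13 CPM in NHD13/MSI2. Replicates 1, 2 and 4 of NHD13/MSI2 had 3, 1 and 2 counts of Slamf1, and replicate 3 had 41. Slamf1 fell in both comparisons, with a log2 fold change of −5.81 (SE 1.02, adjusted p = 0.00904) over NHD13 and −5.06 (SE 0.966, adjusted p = 0.00559) over control. Replicate 3 decided the size: without it the values were −8.14 and −7.38. Without NHD13 replicate 1 Slamf1 was at −4.51 over NHD13 (adjusted p = 0.0653), and without NHD13 replicate 2 at −6.43. The mean of Procr in NHD13/MSI2 was 28.4% of its control mean and that of Slamf1 2.83% (0.578% without replicate 3), a difference between genes that was not tested.

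Esam, a junctional adhesion molecule of endothelium and platelets (chromosome 9, 37528078 to 37538319, plus strand), was at 102.5, 51.1 and 71.2 CPM in control, 77.7 and 26.3 CPM in NHD13 and 3.21, 5.58, 7.38 and 8.24 CPM in NHD13/MSI2. Even the highest of the 4 was under the lower NHD13 library. Esam had a log2 fold change of −3.09 (SE 0.464, adjusted p = 0.00491) over NHD13 and −3.62 (SE 0.444, adjusted p = 0.000632) over control. Without NHD13 replicate 1 it was −2.08 over NHD13 (adjusted p = 0.0479). Emcn, which encodes the sialomucin endomucin (chromosome 3, 137341067 to 137432185, plus strand), was at 23.1, 15.8 and 33.7 CPM in control, 27.5 and 5.93 CPM in NHD13 and 0, 0.399, 0.136 and 0.0649 CPM in NHD13/MSI2. Only 12 counts of Emcn were found in the 4 last libraries together. The log2 fold change was −6.70 (SE 0.839, adjusted p = 0.00231) over NHD13 and −7.24 (SE 0.821, adjusted p = 0.000427) over control. Emcn over NHD13 was −5.18 without NHD13 replicate 1 (adjusted p = 0.0107) and −7.38 without NHD13 replicate 2, and without NHD13/MSI2 replicate 2 it was −7.76 and, over control, −8.31.

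Fgd5, the Cdc42 exchange factor (chromosome 6, 91978878 to 92076004, plus strand), was nearly absent from NHD13/MSI2. It was at 11.8, 7.26 and 10.8 CPM in control and at 12.6 and 9.09 CPM in NHD13, and these 5 libraries lay close together. In NHD13/MSI2 it had 0, 1, 2 and 2 counts (0, 0.0499, 0.0905 and 0.13 CPM). Summed over libraries and scaled, the NHD13 level was 168 times that of NHD13/MSI2 (95% interval 71.4 to 519) and the control level 155 times (66.1 to 479), intervals that cover counting error only. By the quasi-likelihood test the adjusted p was 0.000378 against NHD13 and 6e-05 against control, and Fgd5 passed the threshold in all 21 alternatives in both comparisons. Ctnnal1, an alpha-catenin-like cytoplasmic protein (chromosome 4, 56810935 to 56865188, minus strand), was at 32.0, 12.4 and 28.4 CPM in control, 47.9 and 23.1 CPM in NHD13 and 6.31, 4.74, 10.7 and 7.72 CPM in NHD13/MSI2. The NHD13/MSI2 libraries lay below all others, by less than in Fgd5. The log2 fold changes of −2.27 (SE 0.438, adjusted p = 0.0135) over NHD13 and −1.72 (SE 0.403, adjusted p = 0.0148) over control missed the threshold.

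Robo4, the guidance receptor (chromosome 9, 37401897 to 37415115, plus strand), was not lower against NHD13. Its level was 36.0, 29.0 and 30.4 CPM in control, 15.2 and 6.62 CPM in NHD13 and 18.4, 25.2, 25.9 and 43.9 CPM in NHD13/MSI2. Every NHD13/MSI2 library was above both NHD13 libraries, which held for 13.0% of all tested genes. The range of NHD13/MSI2 enclosed that of control. Neither difference passed the test: the log2 fold change was 1.38 (95% interval 0.45 to 2.30, adjusted p = 0.0745) over NHD13 and −0.17 (95% interval −0.92 to 0.59, adjusted p = 0.78) over control. Robo4 and Esam lie on the same strand of chromosome 9, with Robo4 ending at 37415115 and Esam beginning at 37528078.

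**Figure D2:**
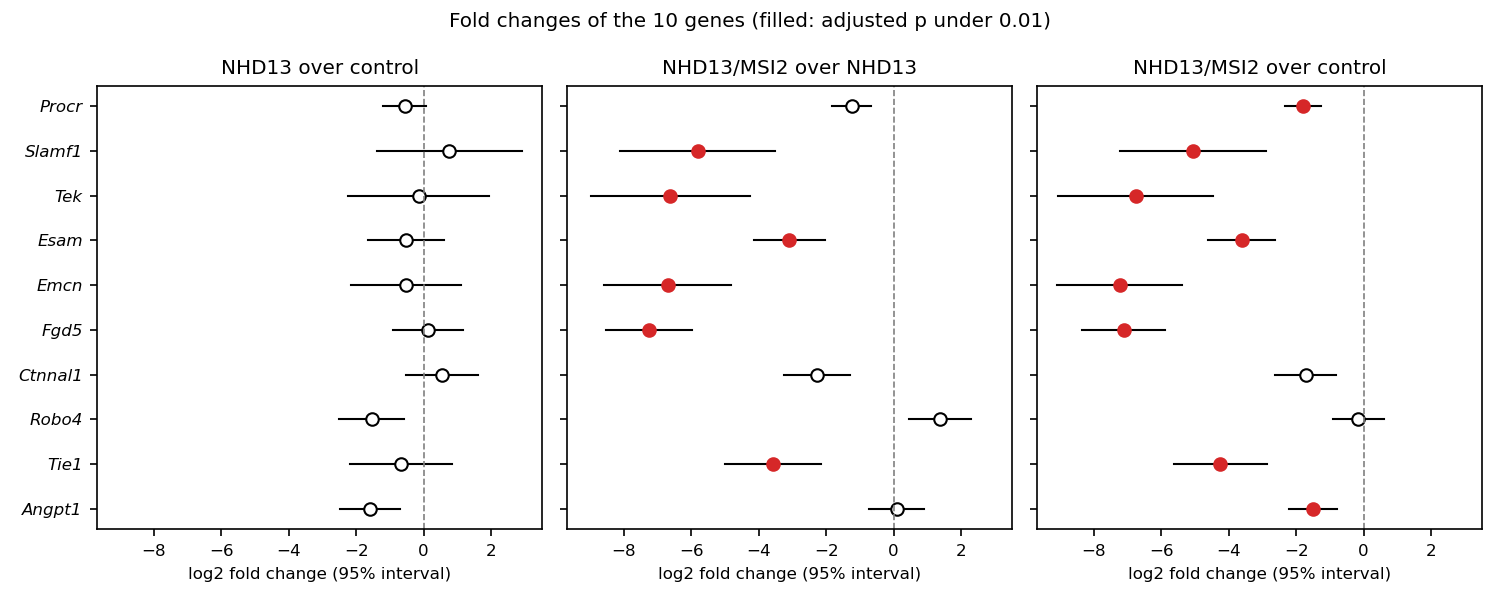
Log2 fold changes of the 10 genes in the 3 contrasts with their 95% intervals, filled where the adjusted p is under 0.01. In NHD13 over control no gene is filled, in NHD13/MSI2 over NHD13 6 genes are filled and in NHD13/MSI2 over control 8, all below 0, and Robo4 is the gene farthest above 0 against NHD13 (1.38).

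In 8 of the 10 genes (all but Robo4 and Angpt1) every NHD13/MSI2 library was below both NHD13 libraries, which held for 16.9% of all tested genes, and in 9 (all but Robo4) every one was below all controls, against 20.4% of all genes. The calls against NHD13 depended on single libraries, among these genes as over all genes. Without control replicate 1, 2 or 3 or NHD13/MSI2 replicate 1 or 2, 2 genes remained (Emcn and Fgd5), without NHD13/MSI2 replicate 3 there were 3, without NHD13 replicate 1 only Fgd5, and without NHD13/MSI2 replicate 4 or NHD13 replicate 2 there were 5 and 6. The share of all tested genes called in these fits was 1.16% to 1.37% for the first 5, then 1.66%, 0.93%, 4.86% and 2.9%, against 3.17% with all libraries. Calls were lost without a smaller difference when a control was left out, where Slamf1 over NHD13 stayed at −5.82, whereas without NHD13 replicate 1 several differences were smaller. Against control the same fits gave 6 to 8 calls, with 4.9% to 15.5% of all genes called. Fits that kept only control replicate 1 or only control replicate 2 gave 1 call each against control, Fgd5, with 0.856% and 0.693% of all genes called. With only control replicate 2, which takes out both controls with Xist, the log2 fold changes over control were −6.62 for Fgd5, −6.59 for Emcn, −5.49 for Tek, −4.68 for Slamf1, −3.76 for Tie1 and −3.03 for Esam. Procr was then at −1.55, Angpt1 at −1.46 and Robo4 at 0.006, and Ctnnal1 at −0.71 (adjusted p = 0.582). In that fit the lone control is assumed to vary like the other groups, and of all the related and marker genes described further on it called 1 against control, Eltd1.

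The comparison of NHD13 with control asks what the fusion gene does to these genes without MSI2. Of the 10 genes, 0 were called against control by edgeR, 2 (Robo4 and Angpt1) had an unadjusted p under 0.05 and DESeq2 called 1 (Angpt1), where edgeR called 1.03% of all tested genes, 0.210% lower and 0.824% higher. Over all tested genes 13.5% had an unadjusted p under 0.05 and DESeq2 called 4.45%. Angpt1 stood at 33.2% of its control mean (log2 fold change −1.59, 95% interval −2.49 to −0.69, adjusted p = 0.0797), and both NHD13 libraries were below all controls. Robo4 stood at 34.3% (−1.54, 95% interval −2.51 to −0.58, adjusted p = 0.11), again with both NHD13 libraries below the controls. Procr was the third gene with this order, at 67.7% (−0.56, 95% interval −1.21 to 0.08, adjusted p = 0.467), and 18.5% of all tested genes had it. None of the 10 had both NHD13 libraries above all controls, against 18.9% of all genes. In the other 7 genes the NHD13 libraries overlapped the controls, with mean levels from 62.6% (Tie1) to 169% (Slamf1) of control. Their 95% intervals of the log2 fold change included 0, and were as wide as −1.40 to 2.91 for Slamf1 and −2.23 to 1.95 for Tek and as narrow as −0.92 to 1.17 for Fgd5 and −0.51 to 1.61 for Ctnnal1. Without NHD13 replicate 1 there was 1 call, Angpt1, at −2.62 (adjusted p = 0.00301). The 3 comparisons share libraries, and their values are given side by side for that reason.

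The 2 NHD13 libraries differed from each other in these genes. Replicate 1 was above replicate 2 in all 10, by a factor from 1.04 (Procr) and 1.39 (Fgd5) to 3.48 (Tie1), 3.86 (Slamf1) and 4.64 (Emcn). Among the 11050 tested genes with a mean of at least 50 counts in these libraries the median ratio was 1, and 50.4% were higher in replicate 1. Megakaryocyte markers were also higher in replicate 1 in sum, with a summed level of 1258 CPM against 430.4 CPM, which includes 169 against 13.3 CPM of Vwf and 290.1 against 16.1 CPM of Pf4. Their part in the difference was not tested. Without NHD13 replicate 1 the log2 fold change of Angpt1 in NHD13/MSI2 over NHD13 was 1.14, and without replicate 2 it was −0.47. Neither passed the threshold.

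The controls also had an order. Replicate 1, whose library name holds the word bulk, was highest in 9 of the 10 genes. Replicate 2, the control with Y-linked counts, was lowest in 8. The share of all tested genes with this order was not counted, and its cause was not tested. In sum the 10 genes made up 1482, 1133 and 1110 CPM in control, 837 and 297 CPM in NHD13 and 377, 316, 390 and 418 CPM in NHD13/MSI2. Angpt1 supplied most of each sum in control and NHD13/MSI2, and without it the remaining 9 genes came to 461, 232 and 312 CPM in control, 384 and 149 CPM in NHD13 and 38.7, 50.2, 64.7 and 70.9 CPM in NHD13/MSI2. With Angpt1 the NHD13/MSI2 sums overlapped those of NHD13, and without it they were below all other libraries. Per kilobase of exon in the control mean, Angpt1 was the highest of the 10 at 174 CPM per kb, followed by Esam (26.1), Procr (15.8), Tie1 (15.6), Tek (8.86), Robo4 (6), Emcn (4.47), Ctnnal1 (3.17), Slamf1 (3.14) and Fgd5 (1.58). In this order the 3 controls of one gene overlapped those of the next, except between Angpt1 and Esam and between Slamf1 and Fgd5. In NHD13/MSI2 the order began with Angpt1 (61.3), Robo4 (5.35) and Procr (4.48) and ended with Emcn (0.0277) and Fgd5 (0.0107 CPM per kb).

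Related genes were taken from lists of the pathways and families to which the 10 belong. For the counts that follow, 21.7% of all tested genes had an unadjusted p under 0.05 against NHD13, 32.8% against control and 13.5% in NHD13 over control, and DESeq2 called 9.63%, 19.4% and 4.45%. Partners and effectors of Tek and Tie1 were not called. Of 12 listed genes of TIE receptor signalling 9 were tested, and 0 were called by edgeR in any contrast. At an unadjusted p under 0.05 there was 1 against NHD13, 1 against control and 0 in NHD13 over control, and DESeq2 called 0, 1 and 0. Their median log2 fold change was −0.28 over NHD13 and −0.12 over control. Of the SLIT and ROBO genes 9 of 11 were tested. Against NHD13 edgeR called 0 of them (4 at an unadjusted p under 0.05, 1 by DESeq2), and against control 1, Robo1, which was lower (adjusted p = 0.00832), with 0 counts in all 4 NHD13/MSI2 libraries and 8 to 25 counts in the controls. In the same comparison Robo4 stood at 89.2% of its control mean. Of the SLAM family 10 genes were tested beside Slamf1, and 0 were called against NHD13 by edgeR (4 at an unadjusted p under 0.05, 1 by DESeq2), while against control Cd244 fell (log2 fold change −1.83, adjusted p = 0.00883) and Slamf6 rose (3.14, adjusted p = 0.00366). Exchange factors of the FGD family and Cdc42 gave 0 calls of 7 against NHD13 (3 at an unadjusted p under 0.05, 0 by DESeq2) and 1 against control, Fgd2, which rose by a log2 fold change of 1.89 (adjusted p = 0.000974) while Fgd5 fell. Catenins and vinculin, the relatives of Ctnnal1, gave 0 calls of 6 in any contrast by edgeR, with 4, 2 and 2 at an unadjusted p under 0.05 against NHD13, against control and in NHD13 over control, and 0, 0 and 1 by DESeq2.

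Among the relatives of Esam and Procr several genes were called lower. Of 8 junctional adhesion genes 5 were tested, and Jam2, Jam3 and F11r fell in both comparisons, where 2.58% of all tested genes were called lower against NHD13 and 6.55% against control. F11r (JAM-A) was at 53.8 to 72.5 CPM in control, 104 and 27.3 CPM in NHD13 and 3.29 to 7.66 CPM in NHD13/MSI2, a log2 fold change of −3.55 (adjusted p = 0.00284) over NHD13 and −3.50 (adjusted p = 0.000722) over control, beside −3.09 and −3.62 for Esam. Jam2 was at 0 to 0.648 CPM in NHD13/MSI2 against 39.0 and 11.4 CPM in NHD13 and 3.23 to 9.20 CPM in control. The protein C and thrombin receptor list had 7 of 11 genes tested, of which 2 were lower against NHD13 and 4 against control, beside the same 2.58% and 6.55% of all genes. Tfpi, the inhibitor of the tissue factor pathway, fell to 0.195 to 1.76 CPM from 61.9 and 20.5 CPM in NHD13 and 29.0 to 57.7 CPM in control (log2 fold change −5.53, adjusted p = 0.0029, and −5.46, adjusted p = 0.000809). Pros1, the cofactor of activated protein C, fell as well, with −3.62 over NHD13 (adjusted p = 0.00491) and −2.87 over control (adjusted p = 0.00362). The thrombin receptors F2r and F2rl3 fell against control (−1.75 and −2.54, adjusted p = 0.00674 and 0.000427), and their log2 fold changes of −1.54 and −1.59 over NHD13 missed the threshold (adjusted p = 0.0371 and 0.0141). F2rl1 went the other way and rose against control in NHD13 (5.89, adjusted p = 0.00263) and in NHD13/MSI2 (5.80, adjusted p = 0.00054). It had 3, 2 and 0 counts in the controls and 3.44 to 5.14 CPM in the other libraries, so that the size of these fold changes rests on few counts.

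**Figure D3:**
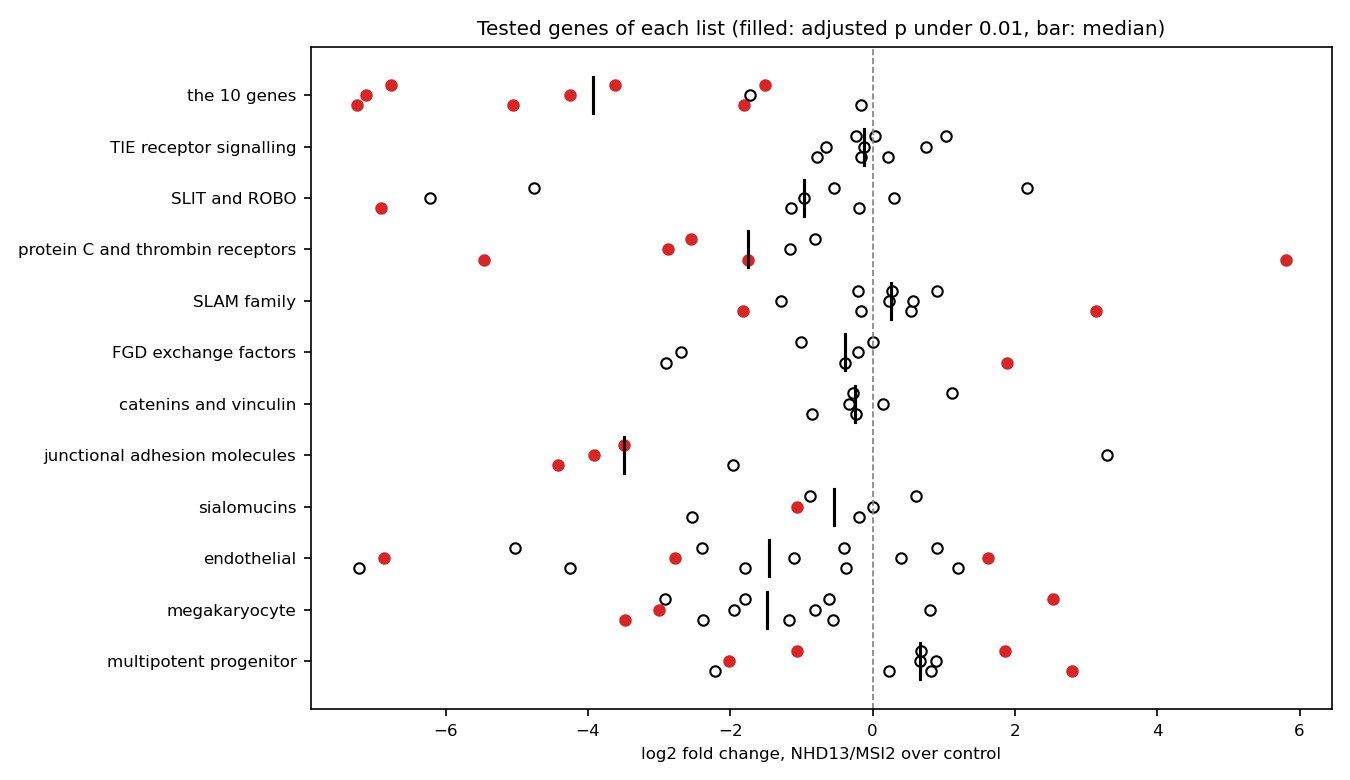
Log2 fold changes of NHD13/MSI2 over control for the tested genes of each list, each point a gene, filled where the adjusted p is under 0.01, with a bar at the median of the list. The 10 genes have a median of −3.93 and the junctional adhesion molecules −3.5, while TIE receptor signalling lies at −0.12 and the SLAM family at 0.25.

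Other vascular-type genes had calls in both directions and a median below 0. Of 20 endothelial markers 14 were tested. Their median log2 fold change was −0.98 over NHD13 and −1.45 over control. At an unadjusted p under 0.05 there were 9 against NHD13 and 8 against control, where 21.7% and 32.8% of all tested genes had one. DESeq2 called 5 and 6, beside 9.63% and 19.4% of all genes. By edgeR Eltd1 fell and Egfl7 rose against NHD13, and against control Eltd1 and Ecscr fell and Pecam1 rose. Eltd1, an adhesion receptor of endothelium, was at 1580 to 1883 CPM in control, 93.0 and 57.5 CPM in NHD13 and 8.84 to 25.4 CPM in NHD13/MSI2. Eltd1 also fell in NHD13 over control, where none of the 10 genes was called (log2 fold change −4.54, adjusted p = 0.00166). Pecam1 (CD31) rose by a log2 fold change of 1.63 (adjusted p = 0.000131) over control, and Egfl7 by 1.47 (adjusted p = 0.00926) over NHD13. Cd34, a sialomucin like Emcn that both stem cells and vessels carry, fell in NHD13 (log2 fold change −1.80, adjusted p = 0.00572) and in NHD13/MSI2 (−1.07, adjusted p = 0.00457) against control, and was the only call among 6 tested sialomucins in these comparisons. The genes that define endothelial cells were near 0 throughout. Cdh5, Kdr, Flt4, Cldn5, Plvap and Stab2 together came to 3.24 to 3.44 CPM in control, 4.74 and 6.82 CPM in NHD13 and 0.860 to 2.05 CPM in NHD13/MSI2, with Cdh5 at 0.44 CPM or less in every library. None of the 4 tested was called in any contrast by edgeR (0 calls, with 2, 2 and 1 at an unadjusted p under 0.05 and 1, 2 and 0 by DESeq2). At these low levels the median log2 fold change of the 4 was −3.06 over NHD13 and −3.32 over control.

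**Figure D4:**
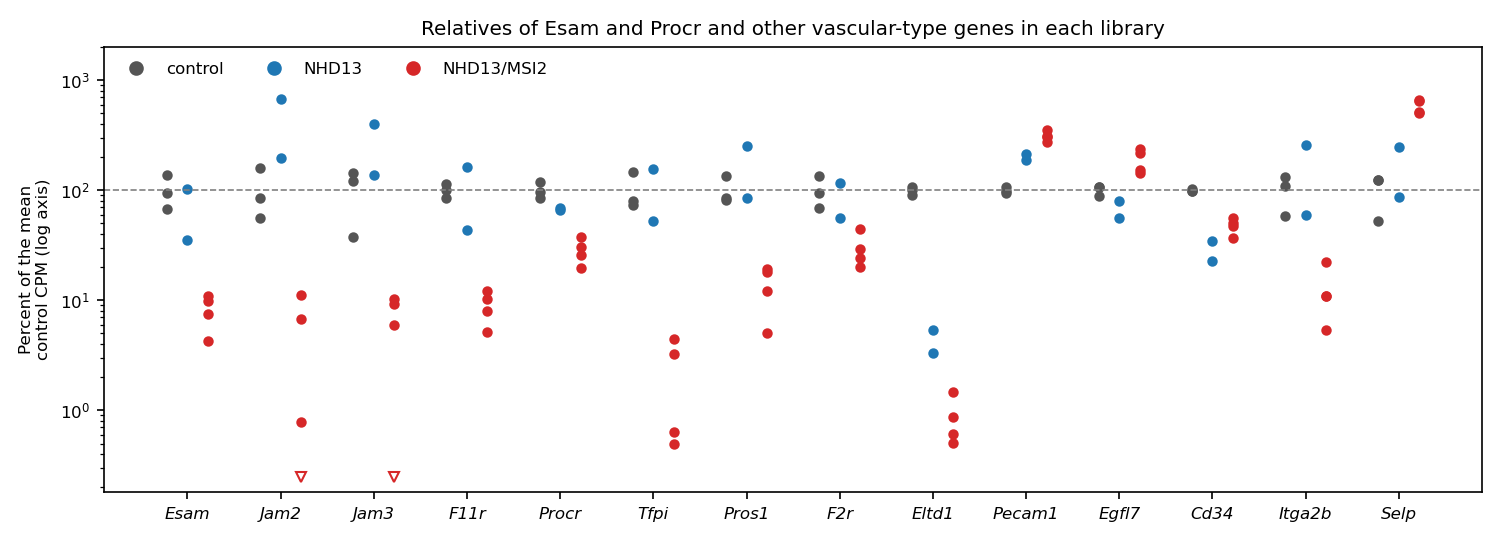
Level of 14 genes in each library as a percent of the mean control CPM (log axis), grey for control, blue for NHD13, red for the libraries labelled NHD13/MSI2, with open triangles for 0 counts. Esam, Jam2, Jam3, F11r, Tfpi and Itga2b are low in all red libraries, whereas Pecam1, Egfl7 and Selp are above 100%.

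Megakaryocyte markers, which share several genes with stem cells, were split as well. Of 14 genes 12 were tested, and 1, the integrin chain Itga2b, fell against NHD13 (log2 fold change −3.66, adjusted p = 0.00734). Against control Itga2b and Gata1 fell and Selp rose. Over all tested genes 2.58% were called lower against NHD13, and 6.55% lower and 4.49% higher against control. At an unadjusted p under 0.05 there were 7 of the 12 against NHD13 and 7 against control, beside 21.7% and 32.8% of all genes. DESeq2 called 5 and 5, beside 9.63% and 19.4%. The summed level of these genes was 422 to 697 CPM in control, 1258 and 430.4 CPM in NHD13 and 1048 to 1536 CPM in NHD13/MSI2. Selp and Nfe2 made up nearly all of the last: without them the other 12 genes came to 109 to 280.1 CPM in control, 738 and 92.9 CPM in NHD13 and 23.6 to 52.8 CPM in NHD13/MSI2, below all other libraries. The median log2 fold change of the 12 tested genes was −1.42 over NHD13 and −1.49 over control. Markers of multipotent progenitors had a summed level of 4494 to 4884 CPM in control, 5762 and 5863 CPM in NHD13 and 9880 to 16000 CPM in NHD13/MSI2. Mpo supplied most of the NHD13/MSI2 sums, and without it the other 9 genes came to 2910 to 3299 CPM in control, 1955 and 2904 CPM in NHD13 and 1982 to 2525 CPM in NHD13/MSI2, below every control. These sums without the most abundant genes were chosen after the values were seen. Of these 10 genes, Mpo (2.80, adjusted p = 0.000254) and Satb1 (1.86, adjusted p = 0.000568) rose and Flt3 (−2.01, adjusted p = 0.00497) and Cd34 fell against control, and 0 were called against NHD13 by edgeR (7 at an unadjusted p under 0.05, 1 by DESeq2). B cell markers summed to 45.7 to 57.5 CPM in control, 127 and 81.8 CPM in NHD13 and 262 to 448 CPM in NHD13/MSI2. The part of these other cells in the levels of the 10 genes was not tested.

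The genes whose course over the 9 libraries was most like the mean of the 10 genes (Pearson's r with their mean Z-score, as a description) were Arhgap5 (0.992), Eya2 (0.992), Hspa4l (0.99), Psd3 (0.988) and Capsl (0.988). Eya2 was at 76.5, 44.2 and 49.9 CPM in control, 61.2 and 20.6 CPM in NHD13 and 8.02 to 12.9 CPM in NHD13/MSI2. Capsl was at 5.32 to 7.08 CPM in control, 4.60 and 1.14 CPM in NHD13 and 0 to 0.272 CPM in NHD13/MSI2. Of the 10 genes themselves, which enter this mean, Esam was nearest to it (0.992), followed by Procr and Emcn (0.961 each), Fgd5 (0.944), Tie1 (0.932), Slamf1 (0.923), Tek (0.918), Ctnnal1 (0.873) and Angpt1 (0.703), and Robo4 was unrelated to it (0.05). The 9 points fall into the 3 groups and are not independent of each other, so that no test goes with these values.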

How the data were processed

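RNA-seq libraries of sorted LSKs were analysed, 3 control, 2 NHD13 and 4 NHD13/MSI2, grouped by the sample labels. The deposited values are raw counts of reads per gene, whole numbers with a column for each library; the submitters' processing notes name STAR, HTSeq, DESeq and mm9. In the table, 11942 names that follow the March genes stand 2 rows too high and were moved down by 2 rows, which concerns Procr, Slamf1, Tek, Robo4 and Tie1. After this move 75 of 83 ribosomal protein genes had a mean of at least 1000 counts, against 63 to 69 for moves of 0, 1, 3 or 4 rows. No name could be given to 13 rows (0.0253% to 0.0323% of a library), which were not used.

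Low counts were filtered by filterByExpr, and edgeR 4.0.16 (limma 3.58.1, R 4.3.3) was used with TMM factors and its quasi-likelihood test, with all 9 libraries in the model. Genes with a Benjamini-Hochberg adjusted p under 0.01, the threshold of the study, were called. The spread of each gene was estimated over the 3 groups together, since NHD13 has 2 libraries. The scripts were tested on simulated data. The 10 genes and all lists were chosen with earlier results of these data known. A gene of the megakaryocyte list is not reported here and was left out of its counts and sums. From each list, up to 4 genes with the largest absolute log2 fold change over NHD13 among those called in any comparison were named, with further called genes named where a count was small, and so were the 5 genes whose course was most like that of the 10. Gene positions and exon lengths are from GENCODE M21 on GRCm38 and promoters from RefSeq (GRCm38.p6), not from the mm9 build of the counts. Any pair of libraries in a group differed beyond sampling noise (chi-square from 17.6 to 390 per gene, and over 100 only in pairs with NHD13/MSI2 replicate 4). The alternatives were DESeq2 1.42.0, other scaling, filters and thresholds, a robust fit, a block for the replicate number, the compared groups alone, the names as deposited, CPM without TMM factors, and libraries left out. Sums of 2 marker lists without their most abundant genes were added after the data were seen.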

Additional observations from a re-analysis of the deposited data

Results flagged for a closer look

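Among the 4 libraries labelled NHD13/MSI2, a single library stood apart from the others in 4 of 44 genes examined (by Dixon's criterion at 95%). About 1 in 20 groups exceeds it by chance. Slamf1 was at 1.855 CPM in replicate 3 and at 0.0499 to 0.155 CPM in the others. Tek was at 1.493 CPM in replicate 4 and at 0 to 0.155 CPM in the others. Both values are under those of every NHD13 and control library. Hspa4l, one of the genes with the most similar course, was at 27.48 CPM in replicate 2 and at 29.95 to 30.44 CPM in the others. Msi2 was at 241.4 CPM in replicate 4 and at 77.1 to 88.0 CPM in the others.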

How the results depend on the processing

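Against NHD13, 6 of the 10 genes were called, and 1 to 6 with each library left out in turn, 8 with DESeq2, 3 with the replicate number as a block, 1 in the fit of the 2 groups alone, and 1 each with only control replicate 1 or only control replicate 2 kept. Against control there were 8 calls, 6 to 8 with each library left out, 8 with the block, and 1 with only control replicate 1 or only control replicate 2. NHD13 over control had 0 calls, 1 with DESeq2 and 0 to 1 with each library left out. With the names as deposited, where some of the genes carry the counts of other genes, 3, 4 and 0 were called. The replicate numbers did not pair the libraries: the deviations of same-numbered libraries correlated at −0.07 to 0.19, and 1 of 3 numbers had its best partner in its own number. Over all genes the calls of the 3 comparisons (423, 1474 and 138) were 1286, 2589 and 594 with DESeq2, 203, 1407 and 101 with the block, and 30, 1602 and 83 in fits of 2 groups. Without scaling factors the median of all genes moved to −0.225 against NHD13 and −0.223 against control, 90.4% and 73% of the calls were lower (81.6% and 59.4% with TMM), and 7 and 9 of the 10 genes were called.

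Fgd5 was past the threshold in all 21 alternatives against NHD13 and against control, and Emcn in 16 and 19 of them. Apart from the names as deposited, changes of sign were found in values that had not passed the test. Under these names the log2 fold change was 1.65 for Slamf1 over NHD13, in NHD13/MSI2 over control 0.45 (Tek), 0.025 (Tfpi), −0.56 (Pecam1) and −0.079 (Mpo), and in NHD13 over control −3.27 (Slamf1) and 0.69 (Tek). Angpt1 over NHD13 was at −0.127 without scaling factors and at −0.47 to 1.14 with each library left out, Robo4 over control at 0.006 with only control replicate 2 and at −0.45 to 0.007 with each library left out. In NHD13 over control, the range with each library left out was −0.53 to 1.41 for Slamf1, −0.94 to 0.49 for Tek, −1.51 to 0.037 for Esam, −2.03 to 0.17 for Emcn, −0.129 to 0.33 for Fgd5 and −0.071 to 0.97 for Ctnnal1, with the lowest value without NHD13 replicate 1 in each of them. With only control replicate 2 Tek was at 1.06, Esam at 0.027 and Emcn at 0.082, and Fgd5 was at −0.144 with only control replicate 1. The causes were not tested. In CPM without TMM factors the mean of Procr in NHD13 moved by more than the SD of its libraries, and no other group mean of the 10 genes did. Levels from 3 counts or fewer are at the counting floor, which is 0.13 to 0.156 CPM before scaling. With TMM factors 3 counts came to 0.195 CPM in NHD13/MSI2 replicate 4 (the level of Tfpi there).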

Other observations

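Ly6a, which encodes the Sca1 protein used in the sort, was at 88.4, 89.8 and 79.3 CPM in control, at 69.0 and 48.3 CPM in NHD13 and at 375, 254, 311 and 98.7 CPM in the libraries labelled NHD13/MSI2. The lowest NHD13/MSI2 library was above every other library, and the log2 fold change of 2.15 over NHD13 (95% interval 1.10 to 3.19, adjusted p = 0.0221) and of 1.60 over control (95% interval 0.73 to 2.46, adjusted p = 0.0167) missed the threshold. Kit, the other gene of the gate, had log2 fold changes of −0.42 over NHD13 (95% interval −1.04 to 0.20, adjusted p = 0.436) and −0.76 over control (95% interval −1.32 to −0.21, adjusted p = 0.0561). Lck, a kinase of T cells, was higher in NHD13 than in control (log2 fold change 2.22, adjusted p = 0.00135) and lower in NHD13/MSI2 than in NHD13 (−1.44, adjusted p = 0.00426). It was the only 1 of 5 T cell markers tested, since Cd3d, Cd3e, Cd3g and Cd2 did not pass the filter on low counts.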
